A study of Mus musculus with 12 samples.

Results

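The gene group described is that of high-density lipoprotein (HDL) remodelling and cholesterol efflux, measured in mouse liver on Affymetrix arrays. It was listed by name as 10 genes: Pltp, Lcat, Scarb1, Abca1, Abcg1, Abcg5, Abcg8, Lipc, Lipg and Mttp. A probe set, the group of short probes that reads 1 transcript on these arrays, was taken when the platform's gene symbol was 1 of these names. This gave 18 probe sets for 9 genes, of 13598 genes tested in all. Lipc, which encodes hepatic lipase, is not analysed here. All 18 probe sets passed the filter on low values, and each gene is represented by its brightest probe set unless stated.

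Livers of 12 male mice aged 6 to 12 weeks, 3 per group, were taken at ZT14, that is 14 h after lights on under 12 h light and 12 h dark. Untreated mice were wild-type Jcl:ICR mice on normal diet. The other 3 groups received 0.5% (w/w) bezafibrate, a fibrate drug that activates PPARα, in the diet for 5 days: wild-type Jcl:ICR mice, Clk/Clk mutants of the Jcl:ICR background, and PPARα-null mice from 129S4SvJae-PPARalphatm1Gonz/J crossed with Jcl:ICR. The series asks which genes under PPARα are expressed in a CLOCK-dependent manner. Every mutant mouse was treated, so a genotype difference present without the drug and a difference in the response to it cannot be told apart, and the null mice also differ from wild type in strain background.

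HDL forms when the liver and other cells load phospholipid and cholesterol onto apolipoprotein A-I through the transporter ABCA1. The particle is then enlarged and reshaped in plasma by LCAT, PLTP and the lipases, and its cholesteryl esters are taken up by the liver through the receptor SR-BI, encoded by Scarb1. Cholesterol leaves the body through the bile, where the paired transporters ABCG5 and ABCG8 export it, or re-enters plasma on apolipoprotein B particles whose assembly needs the protein encoded by Mttp.

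Bezafibrate in wild type was accompanied by higher Pltp, Lipg and Mttp and by lower Scarb1 and Lcat. Of the 9 genes, 3 rose and 2 fell; over all genes tested, 20.6% were called, 12.8% higher and 7.77% lower. A gene was called when limma's Benjamini-Hochberg adjusted p over all genes was under 0.05 and the difference was at least 1.5-fold. Between PPARα-null and wild type, both on the drug, Scarb1 was higher in the null mice and Pltp and Lipg were lower, against 13.4% of all genes called (5.35% higher, 8.09% lower). Between Clk/Clk and wild type on the drug, Scarb1 and Abcg8 were higher in the mutant and Pltp and Lipg were lower, against 9.13% of all genes called (2.64% higher, 6.49% lower). These 3 comparisons share the treated wild-type arrays. In treated PPARα-null mice set against untreated wild type, Pltp and Mttp were higher and no member was lower, with 6.65% of all genes called (3.96% higher, 2.69% lower). The same 2 genes were higher in treated Clk/Clk mice against untreated wild type, where 19.5% of genes were called (10.6% higher, 8.82% lower). Treated Clk/Clk mice exceeded treated PPARα-null mice in Pltp and Abcg8, with 15.2% of genes called (7.43% higher, 7.78% lower). As in any whole liver, fewer cells of a type and less RNA per cell cannot be told apart.

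**Figure D1:**
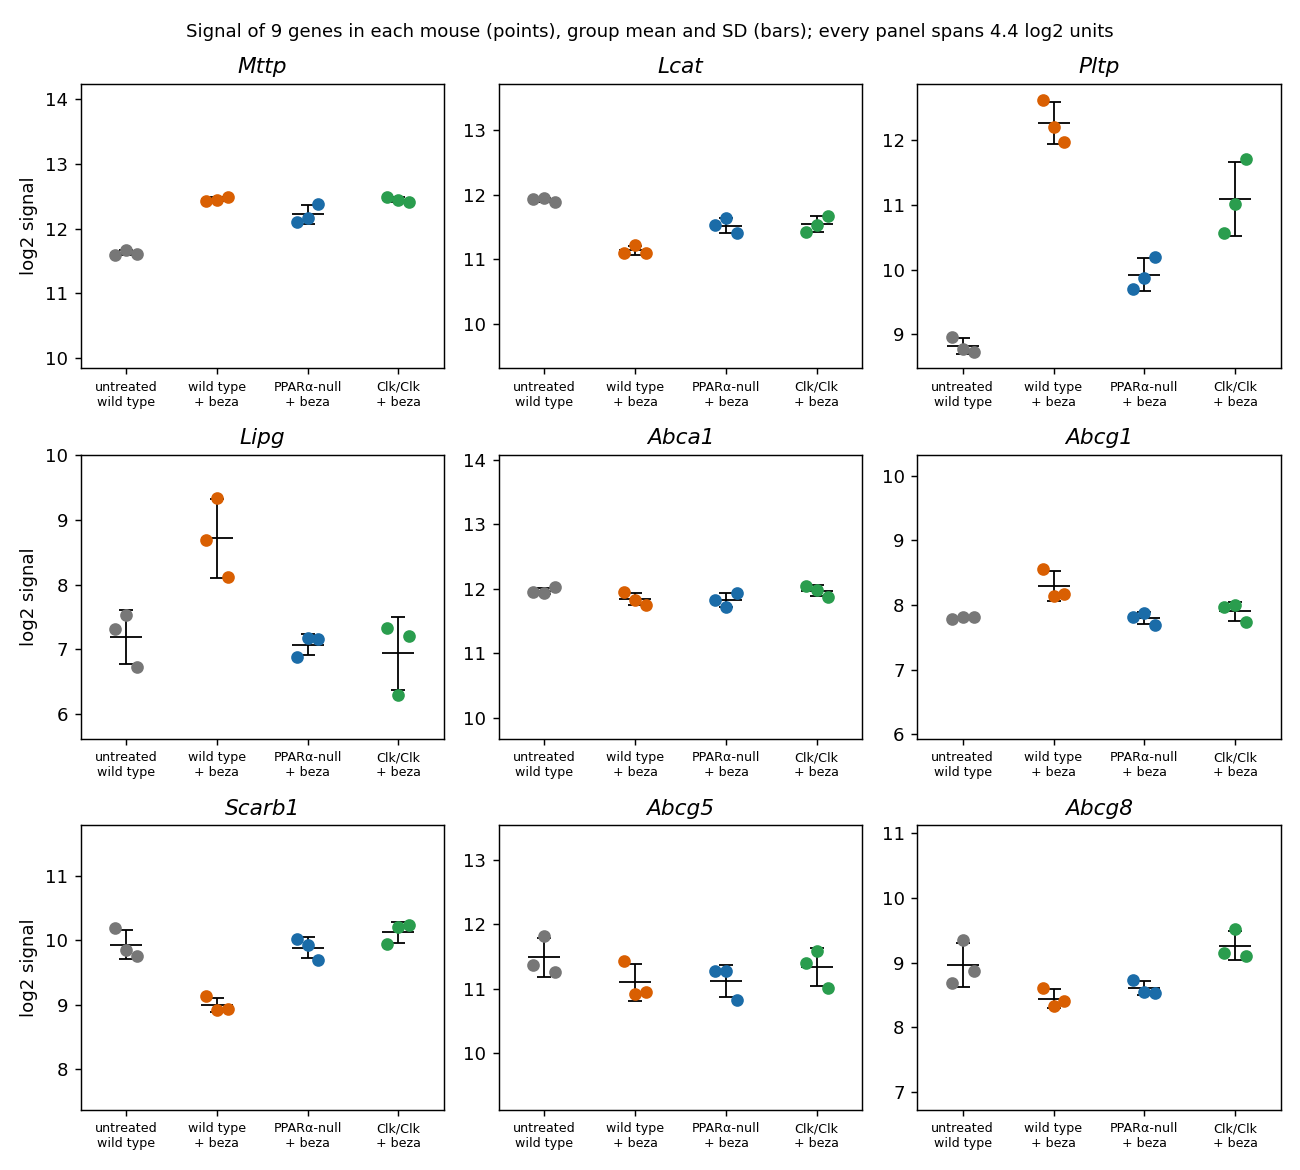
Log2 signal (y axis) of each of the 9 genes in each of 12 mice (points, by group on the x axis), with the group mean (long bar) and SD (short bars), n = 3 mice per group; every panel spans the same range of log2 units but is centred on its own gene. Pltp in treated wild type lies at 11.98 to 12.63 against 8.73 to 8.96 without the drug, while Abca1 lies between 11.72 and 12.04 in all 4 groups.

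The median difference of the 9 genes was -0.13 with the drug in wild type, -0.02 between PPARα-null and treated wild type, and 0.13 between Clk/Clk and treated wild type, on the log2 scale. The medians of all genes tested were 0.01, 0.01 and 0.02. Rises and falls within the group therefore lay on both sides of a middle near zero. The groups of mice did not overlap for 7 of the 9 genes with the drug, where 56.3% of all genes tested did not. They did not overlap for 6 of the 9 between PPARα-null and treated wild type, against 48.6% of all genes, and for 6 of the 9 between Clk/Clk and treated wild type, against 42.3%.

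**Figure D2:**
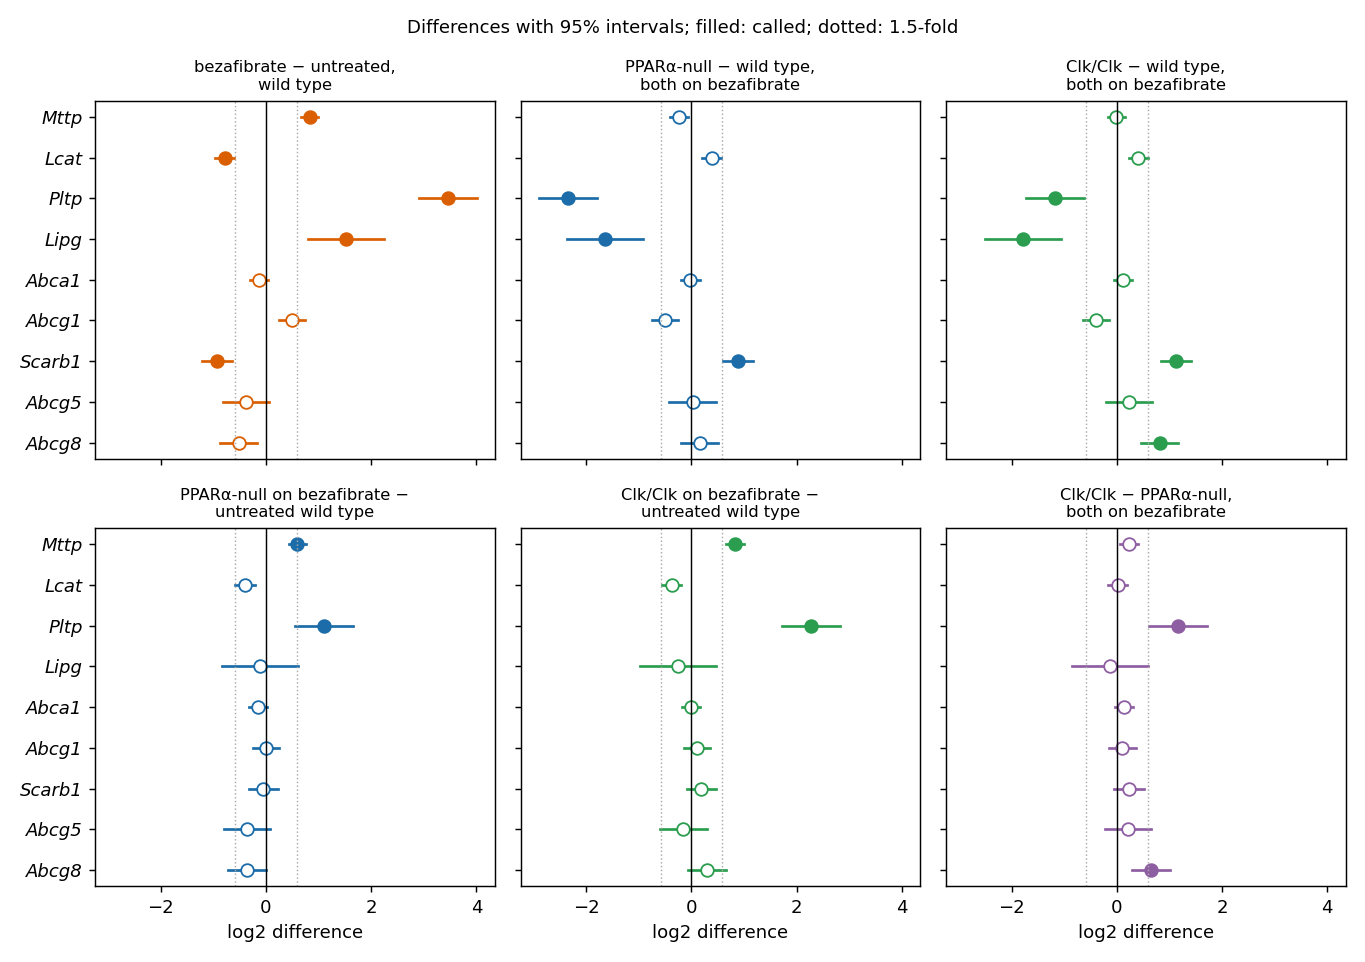
Log2 differences (x axis) of the 9 genes (y axis) with 95% intervals from limma, in 6 contrasts of the 4 groups of 3 mice; filled points were called and dotted lines mark 1.5-fold. The contrasts in the top row share the treated wild-type mice. The point of Pltp lies beyond the dotted lines in every panel, and that of Abca1 in none.

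Mttp encodes the large subunit of the microsomal triglyceride transfer protein, which loads lipid onto apolipoprotein B in the endoplasmic reticulum. Its log2 signal was 11.59, 11.67 and 11.61 in untreated wild type and 12.43, 12.44 and 12.49 in treated wild type. It was 12.10, 12.17 and 12.38 in treated PPARα-null mice and 12.49, 12.44 and 12.42 in treated Clk/Clk mice. All 9 treated mice lay above all untreated ones, and treated Clk/Clk mice lay among treated wild type. Mttp rose with the drug in wild type by 0.83 (SE 0.0757, 1.78-fold, adjusted p = 5.4e-06). The difference between Clk/Clk and wild type was 0.00 (95% interval -0.17 to 0.16), the smallest of this gene's 6 contrasts. PPARα-null mice stood between, at -0.24 from treated wild type (adjusted p = 0.0315, limma), which is short of 1.5-fold, without overlap. Leaving out single mice gave -0.32 to -0.18 for that difference, with adjusted p of up to 0.123. Against untreated wild type they were higher by 0.59 (1.51-fold, adjusted p = 3.78e-04). That call was lost without untreated mouse 1 (0.58) or without PPARα-null mouse 3 (0.51), since the value lies next to the 1.5-fold limit. A second, dimmer probe set for Mttp gave larger differences: 1.23 with the drug (SE 0.086, adjusted p = 7.45e-07) and -0.51 in PPARα-null mice (SE 0.086, adjusted p = 9.29e-04).

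Lcat encodes lecithin-cholesterol acyltransferase, the plasma enzyme that esterifies cholesterol on HDL, and had 1 probe set. It gave 11.94, 11.94 and 11.88 without the drug, and 11.09, 11.22 and 11.09 in treated wild type. In PPARα-null mice it gave 11.53, 11.63 and 11.40, and in Clk/Clk mice 11.43, 11.53 and 11.68. Both mutants lay between the untreated and treated wild type and overlapped neither. Lcat fell with the drug in wild type by 0.78 (SE 0.0827, 1.72-fold, adjusted p = 1.61e-05). It was higher than treated wild type by 0.39 in PPARα-null (adjusted p = 0.0041) and by 0.41 in Clk/Clk mice (adjusted p = 0.00488). Against untreated wild type the mutants differed by -0.40 (adjusted p = 0.00638) and -0.38 (adjusted p = 0.00302). None of these 4 differences reached 1.5-fold. The mutants themselves differed by 0.02 (95% interval -0.16 to 0.20).

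Pltp encodes the phospholipid transfer protein, which moves surface phospholipid from triglyceride-rich particles to HDL and changes HDL size. In untreated wild type its log2 signal was 8.96, 8.77 and 8.73, and with the drug it was 12.63, 12.21 and 11.98. PPARα-null mice gave 9.69, 9.88 and 10.20, and Clk/Clk mice 10.57, 11.01 and 11.70. The 4 groups followed one another without overlap, from untreated wild type through PPARα-null and Clk/Clk to treated wild type, and the Clk/Clk mice were the most spread (SD 0.574, n = 3). With the drug in wild type Pltp rose by 3.45 (SE 0.252, 10.9-fold, adjusted p = 9.79e-07), which ranked 58 of 13598 genes by size. PPARα-null mice were at -2.35 from treated wild type (SE 0.252, 5.1-fold lower, adjusted p = 3.54e-05) and Clk/Clk mice at -1.18 (SE 0.252, 2.26-fold lower, adjusted p = 0.00643). Both lay above untreated wild type, PPARα-null mice by 1.10 (2.15-fold, adjusted p = 0.0101) and Clk/Clk mice by 2.28 (4.84-fold, adjusted p = 2.18e-05). Clk/Clk exceeded PPARα-null mice by 1.17 (SE 0.252, 2.26-fold, adjusted p = 0.0034). All 6 contrasts kept their calls whichever mouse was left out. The second probe set, dimmer than the first and without the suffix that marks probes shared by several transcripts, followed the same order, with 3.83 for the drug, -2.49 for PPARα-null and -1.09 for Clk/Clk mice.

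The sequence upstream of Pltp is shown because, of the 9 genes, this one differed most with the drug in wild type. It is the 250 bases before the start site in RefSeq's table for GRCm38.p6, chr2:164857709-164857958, minus strand, 5′ to 3′ as the gene reads, and would carry in capitals any match to the motifs searched.
Pltp: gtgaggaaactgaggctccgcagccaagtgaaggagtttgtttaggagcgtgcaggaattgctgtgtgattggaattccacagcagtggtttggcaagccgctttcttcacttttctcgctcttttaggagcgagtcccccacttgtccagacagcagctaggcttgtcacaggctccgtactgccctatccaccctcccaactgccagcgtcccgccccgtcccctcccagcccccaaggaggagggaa
The motifs searched on both strands were the E-box CACGTG, which CLOCK with its partner can bind, and the nuclear receptor core site AGGTCA, alone or as a direct repeat, AGGTCANAGGTCA or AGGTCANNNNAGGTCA. A direct repeat also holds the core site. None of them is in the Pltp stretch or in the 50 bases after its start. Of all 32851 windows of 300 bases in the table, 7.15% held the E-box, 16.3% the core site, 0.0396% the direct repeat with spacing 1 and 0.0152% the direct repeat with spacing 4. The table held windows for 7 of the 10 listed genes.

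Lipg encodes endothelial lipase, a phospholipase that acts on HDL. Its signal was 7.31, 7.52 and 6.73 in untreated and 8.69, 9.34 and 8.11 in treated wild type. PPARα-null mice gave 6.88, 7.17 and 7.15, and Clk/Clk mice 7.32, 6.28 and 7.20. Only treated wild type stood apart, and the untreated and the 2 mutant groups overlapped one another. Lipg rose with the drug in wild type by 1.53 (SE 0.328, 2.88-fold, adjusted p = 0.00247). It was at -1.65 in PPARα-null (SE 0.328, 3.13-fold lower, adjusted p = 0.00261) and at -1.78 in Clk/Clk mice (SE 0.328, 3.43-fold lower, adjusted p = 0.0029) relative to treated wild type. Relative to untreated wild type PPARα-null mice differed by -0.12 (95% interval -0.84 to 0.60) and Clk/Clk mice by -0.25 (95% interval -0.97 to 0.47). These intervals are wide enough to include a 1.5-fold difference. A second probe set for Lipg gave 1.84 for the drug (SE 0.361), -1.90 for PPARα-null and -1.88 for Clk/Clk mice. The dimmest, with all mice between 4.66 and 5.12, at about the filter level of 4.87 to 4.92, gave 0.12 for the drug (adjusted p = 0.31).

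Abca1, the transporter that loads lipid onto apolipoprotein A-I, lay between 11.72 and 12.04 on the log2 scale in all 12 mice. It read 11.95, 11.94 and 12.03 without the drug and 11.95, 11.83 and 11.75 with it in wild type. It read 11.83, 11.72 and 11.93 in PPARα-null and 12.04, 11.99 and 11.88 in Clk/Clk mice. The difference with the drug was -0.13 (SE 0.079, 95% interval -0.30 to 0.04, adjusted p = 0.202). PPARα-null mice differed from treated wild type by -0.02 (95% interval -0.19 to 0.15) and Clk/Clk mice by 0.13 (95% interval -0.05 to 0.30). All 6 intervals of Abca1, from its brightest probe set, lay inside 1.5-fold. Of its 3 probe sets none was called in these contrasts. The dimmest gave -0.55 in PPARα-null mice against treated wild type (SE 0.155, adjusted p = 0.0192), under 1.5-fold, where the brightest gave -0.02. For the same contrast the middle probe set gave -0.25 (SE 0.0968, adjusted p = 0.0668, limma).

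The stretch upstream of Abca1 is shown because, of the members measured here with a window in the table, its window was the only one to hold an E-box. It spans chr4:53159989-53160145 on the minus strand of GRCm38.p6 (RefSeq), 157 bases at positions -250 to -94 from the start site of the window, with the E-box in capitals at -147. The bases between it and that start site lie inside the annotated span of the gene and are not printed.
Abca1: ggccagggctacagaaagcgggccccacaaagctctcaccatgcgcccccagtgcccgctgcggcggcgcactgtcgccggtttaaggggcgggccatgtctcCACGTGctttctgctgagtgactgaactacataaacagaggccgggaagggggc
This match is a description of the letters. Abca1 signal in Clk/Clk mice lay at 11.88 to 12.04, overlapping both wild-type groups.

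Abcg1 encodes a transporter that passes cholesterol to formed HDL. Its log2 signal was 7.79, 7.81 and 7.81 without the drug and 8.56, 8.14 and 8.17 with it in wild type. In PPARα-null mice it was 7.81, 7.88 and 7.69, and in Clk/Clk mice 7.97, 8.01 and 7.73. Treated wild type lay above the other 3 groups, which overlapped. The difference with the drug was 0.49 (SE 0.113, 95% interval 0.24 to 0.74, adjusted p = 0.00387). Relative to treated wild type it was -0.50 in PPARα-null (adjusted p = 0.00575) and -0.39 in Clk/Clk mice (adjusted p = 0.028). These differences passed limma's adjusted p but not 1.5-fold, so Abcg1 was not called. In Clk/Clk mice the adjusted p was not passed without treated wild-type mouse 1 (-0.25, adjusted p = 0.0823) or without Clk/Clk mouse 3 (-0.30, adjusted p = 0.106). A second, dim probe set (5.22 to 5.52) gave 0.13 for the drug (adjusted p = 0.23).

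Scarb1 encodes SR-BI, the receptor through which the liver takes cholesteryl ester from HDL. The readings were 10.19, 9.86 and 9.76 in untreated wild type and 9.13, 8.92 and 8.94 in treated wild type. PPARα-null mice read 10.02, 9.93 and 9.70, and Clk/Clk mice 9.94, 10.20 and 10.23. Treated wild type was the low group, and the other 3 overlapped. Scarb1 fell with the drug in wild type by 0.93 (SE 0.128, 1.91-fold, adjusted p = 1.14e-04). Relative to treated wild type it was higher by 0.89 in PPARα-null (SE 0.128, 1.85-fold, adjusted p = 3.05e-04) and by 1.12 in Clk/Clk mice (SE 0.128, 2.18-fold, adjusted p = 2.08e-04). Relative to untreated wild type PPARα-null mice differed by -0.05 (95% interval -0.33 to 0.23) and Clk/Clk mice by 0.19 (95% interval -0.09 to 0.47), both inside 1.5-fold. The mutants differed by 0.24 (adjusted p = 0.176). All 3 Scarb1 probe sets were called in the 3 main contrasts, at -0.75 to -0.97 for the drug, 0.82 to 0.89 for PPARα-null and 0.93 to 1.12 for Clk/Clk mice. Of these, 2 bear the suffix by which Affymetrix marks probes that can cross-hybridize, and the third does not.

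**Figure D3:**
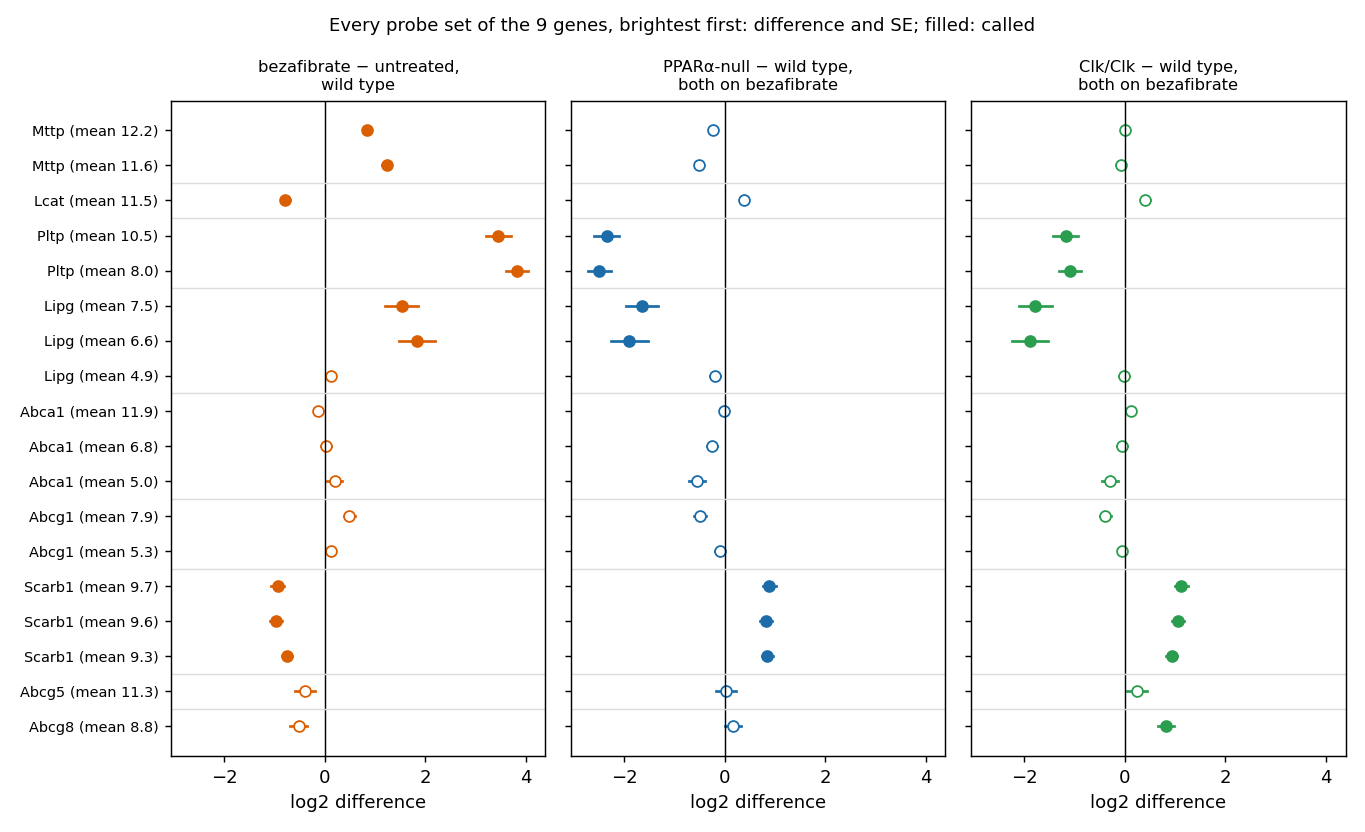
Log2 difference with SE (x axis) of each of the 18 probe sets of the 9 genes (y axis, with the mean log2 signal over 12 mice), in the 3 main contrasts, n = 3 mice per group; filled points were called. The probe sets of Pltp and Scarb1 lie close together in each panel, while the dimmest of Lipg lies near zero.

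Abcg5 and Abcg8 encode the partners of the sterol transporter of the bile canaliculus and lie head to head on chromosome 17. Abcg5 read 11.37, 11.82 and 11.26 without the drug and 11.43, 10.91 and 10.95 with it in wild type. It read 11.27, 11.27 and 10.83 in PPARα-null and 11.40, 11.59 and 11.02 in Clk/Clk mice. All 4 groups overlapped. Abcg5 differed by -0.39 with the drug (SE 0.201, 95% interval -0.83 to 0.05, adjusted p = 0.134), and none of its 6 contrasts was called by limma. The interval for the drug leaves room for a 1.5-fold difference, and the value was -0.22 without untreated mouse 2 (adjusted p = 0.419) and -0.55 without treated mouse 1 (adjusted p = 0.0481).

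For Abcg8 the readings were 8.68, 9.35 and 8.87 without the drug and 8.60, 8.33 and 8.40 with it in wild type. They were 8.73, 8.54 and 8.53 in PPARα-null and 9.15, 9.52 and 9.11 in Clk/Clk mice. Clk/Clk mice lay above both other treated groups without overlap. The difference between Clk/Clk and treated wild type was 0.82 (SE 0.162, 1.76-fold, adjusted p = 0.00443). Clk/Clk exceeded PPARα-null mice by 0.66 (1.57-fold, adjusted p = 0.00791), a call lost without Clk/Clk mouse 2 (0.53). With the drug in wild type Abcg8 differed by -0.52 (SE 0.162, adjusted p = 0.0198), short of 1.5-fold. It passed that limit without untreated mouse 1 (-0.66), without treated mouse 1 (-0.60) or after quantile normalization (-0.59). Without untreated mouse 2, the highest of its group, it was -0.33 (adjusted p = 0.0737), and without treated mouse 2 or 3 it was -0.46 (adjusted p = 0.0643) or -0.50 (adjusted p = 0.051). Against untreated wild type Clk/Clk mice differed by 0.29 (95% interval -0.06 to 0.65, adjusted p = 0.166), and by 0.48 without untreated mouse 2 (adjusted p = 0.0163). Whether Abcg8 and Abcg5 differ in their contrasts was not tested.

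The stretch between the start sites of Abcg5 and Abcg8 is shown whole because the 2 genes are read outward from it. It is chr17:84683012-84683120 of GRCm38.p6 (RefSeq), 109 bases, on the plus strand, the sense of Abcg8. It holds no E-box and no AGGTCA. For Abcg8 the table also holds a window at another start site, chr17:84676052-84676351, which is not shown. Capitals mark TTATCT, which is the GATA box AGATAA read on the other strand, a motif chosen after this sequence had been seen.
Abcg5-Abcg8: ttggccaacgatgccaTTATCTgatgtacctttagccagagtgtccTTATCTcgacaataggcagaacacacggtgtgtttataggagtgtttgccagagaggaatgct
There are 2 such matches in these 109 bases. Of the windows in the table, which are longer at 300 bases, 11.2% hold at least 1. Since the motif was chosen from this sequence, that share is no reference for the matches.

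Related genes were taken from lists written from general knowledge of lipoprotein metabolism, so that the members could be read beside the rest of their pathway. The lists were chosen with earlier results of these data known, so their counts are a description and no independent test. Over all genes tested 20.6% were called with the drug in wild type. Between PPARα-null and treated wild type it was 13.4%, and between Clk/Clk and treated wild type 9.13%. Among proteins carried on HDL and other lipoprotein particles, 1 of 20 tested genes rose with the drug in wild type and 6 fell (median -0.33 against 0.01 for all genes). Saa4, a serum amyloid A protein of HDL, fell by 3.42 (SE 0.165, adjusted p = 4.98e-08). Apom, the HDL carrier of sphingosine-1-phosphate, fell by 1.29 (SE 0.134), and Pon1, the HDL paraoxonase, by 1.37 (SE 0.149). The main HDL apolipoprotein genes gave -0.07 for Apoa1 (adjusted p = 0.314) and 0.00 for Apoa2 (adjusted p = 0.964). Between PPARα-null and treated wild type 5 genes of this list were higher and 1 was lower, with Apoa4 at 3.85 (SE 0.471), Saa4 at 2.68 and Pon1 at 1.10. Between Clk/Clk and treated wild type Pon1 was higher by 0.77 (SE 0.149) and Apof was at -0.60 (SE 0.0908).

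The liver X receptors are the sterol-sensing nuclear receptors known for driving Abca1, Abcg1, Abcg5, Abcg8 and Pltp. Of 13 tested genes in the list of these receptors, their partners and their targets, 2 rose and 4 fell with the drug in wild type. Of all genes 12.8% rose and 7.77% fell. Lpcat3, which remodels membrane phospholipids, rose by 1.94 (SE 0.114, adjusted p = 1.91e-07) and was at -1.29 in PPARα-null mice against treated wild type. Nr1h3, which encodes LXRα itself, gave 0.03 with the drug (adjusted p = 0.73). Nr1h4, the bile acid receptor, and Rxra, the shared partner, each fell by 0.66. No gene of the list was called between Clk/Clk and treated wild type by limma, where 9.13% of all genes were. Pltp and Abcg8, which are not in this list, were called in that contrast, at -1.18 and 0.82.

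Lipoprotein receptors and their adapters gave 2 rises and 1 fall among 8 genes with the drug, where 20.6% of all genes were called. Cd36, a scavenger receptor of the same family as Scarb1, rose by 4.95 (SE 0.101, adjusted p = 1.93e-10), and the receptor Vldlr rose by 3.57 (SE 0.19). Lrp1, the receptor for remnants, fell by 0.81 (SE 0.086). In PPARα-null mice Cd36 was at -2.28 and Vldlr at -3.08 from treated wild type, while Pdzk1, the adapter that holds SR-BI at the hepatocyte surface, was higher by 0.76 (SE 0.121). In Clk/Clk mice Vldlr was higher than in treated wild type by 1.07 (SE 0.19), opposite in sign to Pltp and Lipg in that contrast.

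Among 9 genes of vascular lipases and their control 2 rose and none fell with the drug, where 20.6% of all genes were called. Those that rose were Lpl, lipoprotein lipase, by 2.58 (SE 0.359) and its inhibitor Angptl4 by 0.88 (SE 0.0956). Lpl was at -2.95 in PPARα-null mice against treated wild type (SE 0.359). No gene of this list was called between Clk/Clk and treated wild type, where 9.13% of all genes were. The group means of Lpl were 9.91 in untreated wild type (SD 0.955) and 12.49 in treated wild type (SD 0.228). They were 9.53 in PPARα-null (SD 0.279) and 13.16 in Clk/Clk mice (SD 0.190), so the untreated mice were the most spread. In Clk/Clk mice Lpl was at 0.67 from treated wild type (SE 0.359, adjusted p = 0.195), while Lipg, the related lipase, was at -1.78. The difference between these values was not tested.

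Lipoprotein assembly beside Mttp gave 1 rise and no fall among 14 genes with the drug, where 20.6% of all genes were called. The gene that rose was Tm6sf2, needed for lipid loading of very-low-density lipoprotein, at 0.75 (SE 0.215, adjusted p = 0.0126). Against treated wild type it was at -0.70 in PPARα-null (SE 0.215) and at -1.59 in Clk/Clk mice (SE 0.215, adjusted p = 5.35e-04), the same contrast in which Mttp differed by 0.00. Dgat2, which makes triglyceride, was higher in PPARα-null mice by 0.61 (SE 0.079).

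Intracellular cholesterol handling divided evenly with the drug, with 3 rises and 3 falls among 15 genes, where 20.6% of all genes were called. Lipe (1.17, SE 0.127) and Nceh1 (1.35, SE 0.173), which hydrolyse cholesteryl esters, rose, and Cyp27a1, which starts the alternative bile acid route, fell by 0.99 (SE 0.127). Between PPARα-null and treated wild type 3 genes were higher and 3 lower, with Lipe at -1.16, Nceh1 at -1.36 and the sterol carrier Stard5 at 0.79. In Clk/Clk mice 1 gene was called, Stard4, at -0.81 (SE 0.197).

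Among 6 genes of lipid and bile salt export into bile, 2 rose and 1 fell with the drug, where 20.6% of all genes were called. Abcb4, which supplies the phospholipid that ABCG5 and ABCG8 need for cholesterol secretion, rose by 1.36 (SE 0.11, adjusted p = 2.08e-06), and Abcb1a rose by 1.87 (SE 0.232). Atp8b1, a canalicular lipid flippase, fell by 0.65 (SE 0.0948). Abcb11, the bile salt pump, was higher than in treated wild type by 0.95 (SE 0.123) in PPARα-null and by 0.82 (SE 0.123, adjusted p = 9.2e-04) in Clk/Clk mice, the latter beside the higher Abcg8. Abcb1a was at -1.02 in Clk/Clk mice. Of 12 other ABCA and ABCG transporters, Abca8a fell by 2.12 (SE 0.128) with the drug and Abcg2 rose by 0.77 (SE 0.138). None of these 12 was called between Clk/Clk and treated wild type, where 9.13% of all genes were. Abca8a (1.47) and Abca2 (0.63) were higher in PPARα-null mice.

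**Figure D4:**
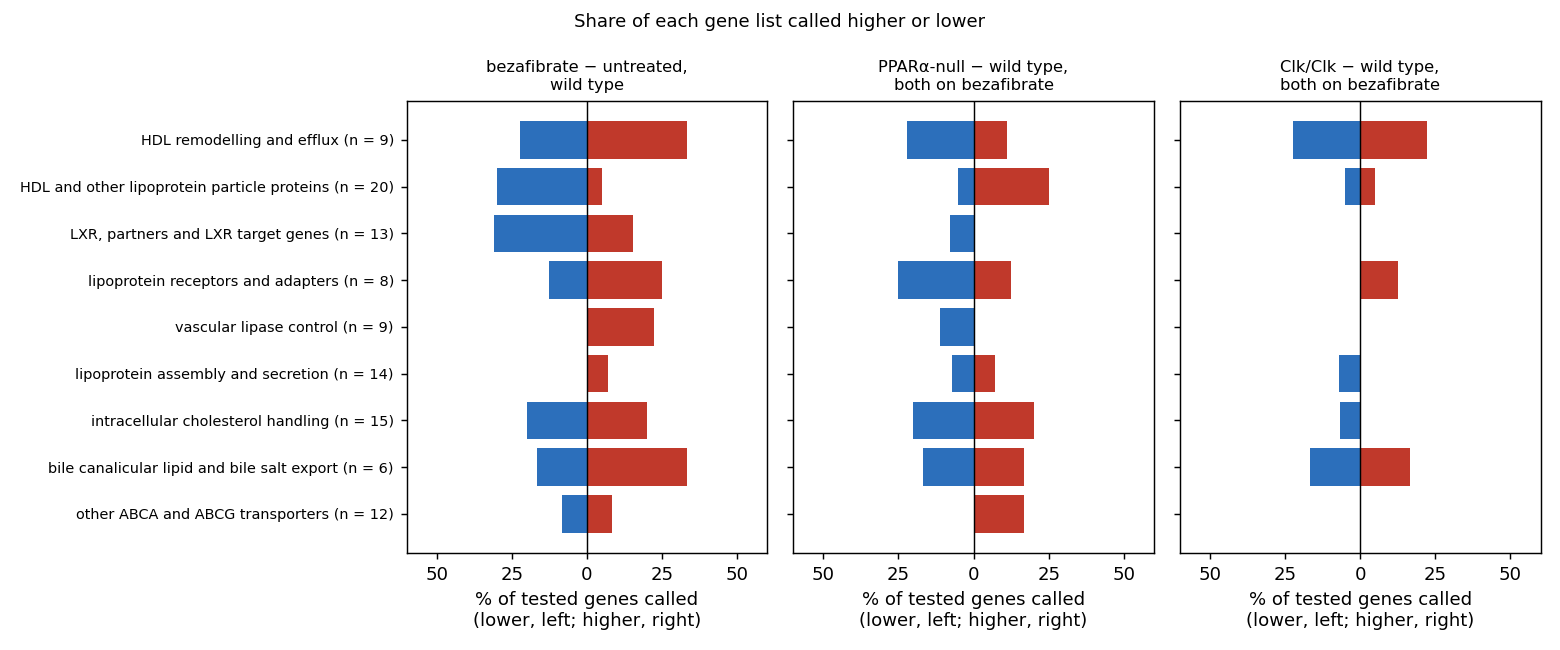
Percent of the tested genes of each list (y axis, with the number tested) called lower (blue, left of zero) or higher (red, right of zero) in the 3 main contrasts, n = 3 mice per group. Over all 13598 genes 20.6%, 13.4% and 9.13% were called. The lists hold 6 to 20 genes, so that 1 gene is a large share.

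The genes whose values over the 12 mice were most like a member's are given as a description, since the mice share the 4 groups. Pltp was most like Pgs1 (Pearson r = 0.987), Avpi1 (0.981) and Hsd17b12 (0.980). Pgs1, a phospholipid synthesis gene, differed by 1.32 with the drug, -0.83 in PPARα-null and -0.30 in Clk/Clk mice. Lcat was most like Mms19 (0.978), Ctsh (0.978) and Gpank1 (0.964). Scarb1 was most like Cdip1 (0.959), Ntn4 (0.941) and Aass (0.938), and Aass, a lysine-degrading enzyme, differed by -1.39, 1.29 and 1.25 in the same 3 contrasts. Lipg was most like Apaf1 (0.920), Micu2 (0.920) and Rab13 (0.917). Mttp was most like Mrpl50 (0.985), Pctp (0.984) and Gpam (0.982). Gpam, the first enzyme of glycerolipid synthesis, differed by 1.76, -0.80 and -0.08.

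The arrays were alike in scale, with medians of 5.45 to 5.50, and pairs within a group correlated over genes at 0.989 to 0.995. Ppara signal persisted in PPARα-null mice at 9.73 to 10.04 against 10.53 to 11.00 in treated wild type, and Clock signal in Clk/Clk mice was 9.07 to 9.37 against 7.99 to 8.49. No label places these probes against the altered exons, and the values are therefore no check of the genotypes. None of the 8 hepatocyte markers was under the filter level, and their summed level (log2) was 16.94 to 16.97 in untreated wild type, 16.54 to 16.60 in treated wild type, 16.86 to 16.89 in PPARα-null and 16.77 to 16.80 in Clk/Clk mice. With the drug in wild type 4 of the 8 fell and none rose, with differences from -1.24 (Cps1) to -0.02 (median -0.58). Of all genes 7.77% fell and 12.8% rose. Lcat and Scarb1 fell in that contrast while Pltp, Lipg and Mttp rose, and a link to the markers was not tested.

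Lipg and Scarb1 are also expressed by sinusoidal endothelial cells, and Abca1 and Abcg1 by macrophages. Beside the marker counts that follow, 12.8% of all genes rose and 7.77% fell with the drug. Between Clk/Clk and treated wild type 9.13% of all genes were called. Of 12 sinusoidal endothelial markers 3 fell with the drug and none rose, and their summed level was 12.56 to 12.69 in untreated wild type, 11.95 to 12.37 in treated wild type, 12.29 to 12.41 in PPARα-null and 12.17 to 12.36 in Clk/Clk mice. In every treated group these sums lay below those of all untreated mice. The sums add linear levels, so that bright markers weigh most. Against untreated wild type 1 of the 12 was called lower in PPARα-null mice (median of the 12, 0.01), where 6.65% of all genes were called. In Clk/Clk mice it was also 1 (median -0.16), where 19.5% of all genes were called. Of 13 macrophage markers 1 rose with the drug, Cd68, by 0.90, and 4 were lower in Clk/Clk than in treated wild type. Their summed levels were 12.81 to 12.97 in untreated and 12.85 to 13.33 in treated wild type. They were 12.90 to 13.06 in PPARα-null and 12.28 to 12.64 in Clk/Clk mice. Of 9 stellate cell markers 4 fell with the drug in wild type (sums 12.14 to 12.27 without it and 11.47 to 11.66 with it). The sums were 11.65 to 11.89 in PPARα-null and 11.65 to 11.72 in Clk/Clk mice, also below all untreated mice. Of 4 cholangiocyte markers 1 rose, Sox9, and Krt7 was under the filter level. Of 5 blood cell markers 1 fell, Alas2, and was lower again in Clk/Clk mice, by -1.57 from treated wild type, while S100a8 was higher in PPARα-null mice by 1.84 (SE 0.473). Hba-a1 was under the filter level. Of the pancreas and gut genes, Cela2a and Cpa1 were under the filter level, and Ctrb1, a pancreas gene, lay between 5.52 and 5.89 in all mice and was not called. Fabp2, an intestinal fatty acid carrier, was at -1.05 in PPARα-null mice from treated wild type (SE 0.147, adjusted p = 2.36e-04) and was higher in Clk/Clk than in PPARα-null mice by 1.18 (adjusted p = 8.2e-05). Its signal was bright in every group, with means of 11.20 in untreated wild type, 11.59 in treated wild type, 10.53 in PPARα-null and 11.71 in Clk/Clk mice. The part of these cell types in the members' values was not tested.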

How the data were processed

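Livers of 12 mice, 1 array per mouse and 3 mice per group, were read from 250 ng of total RNA. The deposited values are log2 expression per probe set; the submitters' processing notes name RMA, with no version, and the array medians show that the arrays had been equalised together. No value was changed. Of 45037 probe sets other than controls, 34945 had exactly 1 platform symbol. The filter on low values required a signal at or above the array's 40th percentile in 3 or more arrays, and each gene took its brightest remaining probe set (13598 genes). The pipeline was tested on simulated data. One fit of limma 3.58.1 (lmFit, eBayes, R 4.3.3) held every array, with 4 group means and 8 residual degrees of freedom, with Benjamini-Hochberg adjustment over all genes; probe sets were fitted likewise. Precision is limited by 3 mice per group; an exact permutation test of 3 against 3 mice cannot go below p = 0.1. Fold changes come from the log2 differences.

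The members and lists were chosen with earlier results of these data known. The named genes are all members, Ppara and Clock, up to 3 called genes with the smallest adjusted p per related list and main contrast, and the 3 genes most correlated with each member called with the drug. Apoa1, Apoa2 and Nr1h3 were named after their values were seen. Same-numbered mice of different groups did not deviate together (correlations of -0.09 to 0.13 over 18 pairs), so no pairing was used. Alternatives were another filter, normalization, probe set rule, array weights, a robust trend, the compared groups alone, a replicate block and each mouse left out.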

Additional observations from a re-analysis of the deposited data

How the results depend on the processing

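Of 1134 alternative values of the members, 1100 kept their direction and their side of the thresholds, 3 lost a call, 3 gained a call and 28 changed sign. The 28 concerned differences that were not called. With the replicate number as a replicate block, the counts stayed at 3 rises and 2 falls with the drug, and the block changed no call of a member. With adjusted p alone and no limit on fold, 2 members were higher and 4 lower between PPARα-null and treated wild type. The share of all genes passing that looser rule is not given here and is at least the 13.4% called. The count is therefore no result about the group. With single mice left out, 1 to 2 members were called between PPARα-null and untreated wild type and 1 to 2 between Clk/Clk and PPARα-null. With the mean of a gene's kept probe sets, Abca1 gave 0.029 with the drug and -0.074 between Clk/Clk and treated wild type, Abcg1 gave 0.0087 between PPARα-null and untreated wild type, and Lipg gave 0.020 between Clk/Clk and PPARα-null. With array weights, Abca1 gave 0.0091 and Abcg5 -0.015 between PPARα-null and treated wild type. With quantile normalization Lcat gave -0.035 between Clk/Clk and PPARα-null. The cause of these changes was not tested. With single mice left out, signs also turned for Abca1 between Clk/Clk and untreated wild type (-0.039 to 0.043) and between PPARα-null and treated wild type (-0.071 to 0.035), and for Abcg1 between PPARα-null and untreated wild type (-0.050 to 0.043). They turned for Abcg5 between Clk/Clk and untreated wild type (-0.28 to 0.017) and between PPARα-null and treated wild type (-0.070 to 0.19), and for Lcat between Clk/Clk and PPARα-null (-0.044 to 0.080). They turned for Lipg between Clk/Clk and PPARα-null (-0.32 to 0.19), Clk/Clk and untreated wild type (-0.48 to 0.074) and PPARα-null and untreated wild type (-0.35 to 0.047). The same held for Mttp between Clk/Clk and treated wild type (-0.028 to 0.013) and Scarb1 between PPARα-null and untreated wild type (-0.14 to 0.078). Signal over background limits the dimmest probe sets of Lipg and Abca1, which lie at the filter level.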
